A study of Mus musculus with 20 samples.

Results

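Cds2 encodes a CDP-diacylglycerol synthase, an enzyme of the endoplasmic reticulum that makes the activated lipid from which phosphatidylinositol is built. The deposited tables list 26 known editing sites in this gene. A site was kept where at least 50 reads covered it in both libraries of at least 1 group, which left 23 of the 26, beside 9065 of the 48425 sites of the whole series. The 23 sites are all annotated as 3′ UTR on the plus strand of chromosome 2, from position 132135362 to 132135673 of mm9, a span of 311 bases. The 3 remaining sites are intronic and had 0 reads in every library. The sites were thus chosen by coverage, while the gene was proposed for its levels after and without interferon.

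Editing was read in mouse embryonic fibroblasts, which are connective tissue cells grown from embryos, by RT-PCR of selected loci and sequencing of the amplicons. The 5 lines are labelled ADAR1_WT, ADAR2_NULL, STAT2_NULL, P150_KO and ADAR1_NULL, and each contributed 2 untreated and 2 interferon-treated libraries, which gives 10 groups. Wild type below means the ADAR1_WT line, whose label speaks of ADAR1 alone. Each genotype is 1 line, so a genotype and the other features of its line cannot be told apart. The sources used here do not give the type, dose or duration of interferon, nor the strain and origin of the lines. Total coverage was 4389326 to 5559674 reads per library, summed over sites. Whether paired libraries derive from different cultures is unstated, and p-values then speak to variation among these libraries alone, possibly technical in origin. The assay gives no expression values, so neither the loss of the targeted genes nor the cell type could be checked by marker genes.

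Adenosine-to-inosine editing turns adenosines of double-stranded RNA into inosine, which is read as guanosine in cDNA. ADAR1 is made as a constitutive p110 form found mostly in the nucleus and as a p150 form that interferon induces and that also acts in the cytoplasm. ADAR2 is a separate enzyme known best for recoding neuronal transcripts. STAT2 is part of the transcription factor complex that type I interferons activate. In 3′ UTRs, editing typically clusters where the RNA folds back on an inverted repeat, and adenosines of the same duplex can differ widely in level.

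The 23 sites lie in 2 stretches of RNA. The first holds 17 sites over 128 bases and the second 6 sites over 61 bases, with 122 bases between them that hold no listed site. Coverage was nearly flat within a stretch and changed between them. The sites of the first stretch without doubled coverage had 221 to 650 reads per library. The first 5 sites of the second stretch had 204 to 852 reads in all libraries other than the first treated p150-knockout library, which had 36. At 4 sites in the middle of the first stretch, 132135401 to 132135458, the median coverage of a library was 1.98 to 2.10 times that of the sites before them, and at 132135673 it was 1.98 to 2.11 times that of the rest of its stretch. The sources used here do not say whether both reads of a pair were counted there. The edited share is unaffected by such a doubling, but counts at these 5 sites may hold fewer independent reads than they show.

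**Figure D1:**
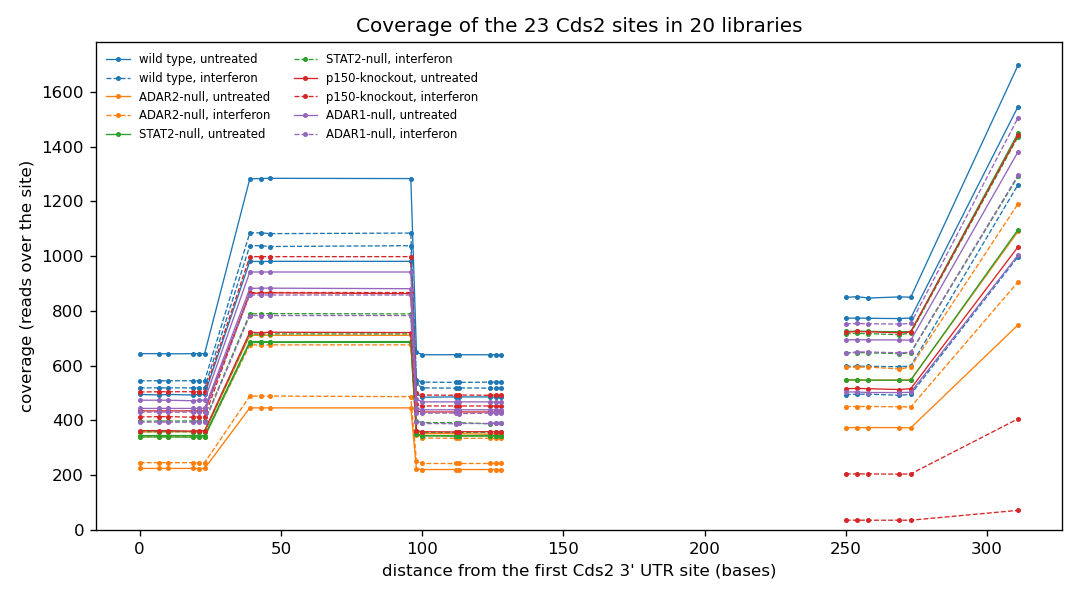
Coverage (reads over the site, vertical axis) against the distance in bases from the first Cds2 site, with a line for each of the 20 libraries, coloured by line of cells and dashed for interferon. Coverage steps up at 4 sites of the first stretch and at the last site, and the lowest trace of the second stretch is the first treated p150-knockout library with 36 reads.

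Of the 23 sites, 7 reached a group mean of 5% in any of the 10 groups, and 3 of these reached 50%. The other 16 sites gave 320 site-by-library values with a median of 0.225%, of which 122 were exactly 0 and 10 were 2% or more. Editing on this UTR was therefore carried by a few adenosines among many listed ones. The 3 most edited sites were 132135369, 132135405 and 132135616, which lie 7, 43 and 254 bases after the first site. Each of them is followed within 3 or 4 bases by a listed site that was edited less, namely 132135372, 132135408 and 132135620. The remaining site above 5% was 132135381.

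**Figure D2:**
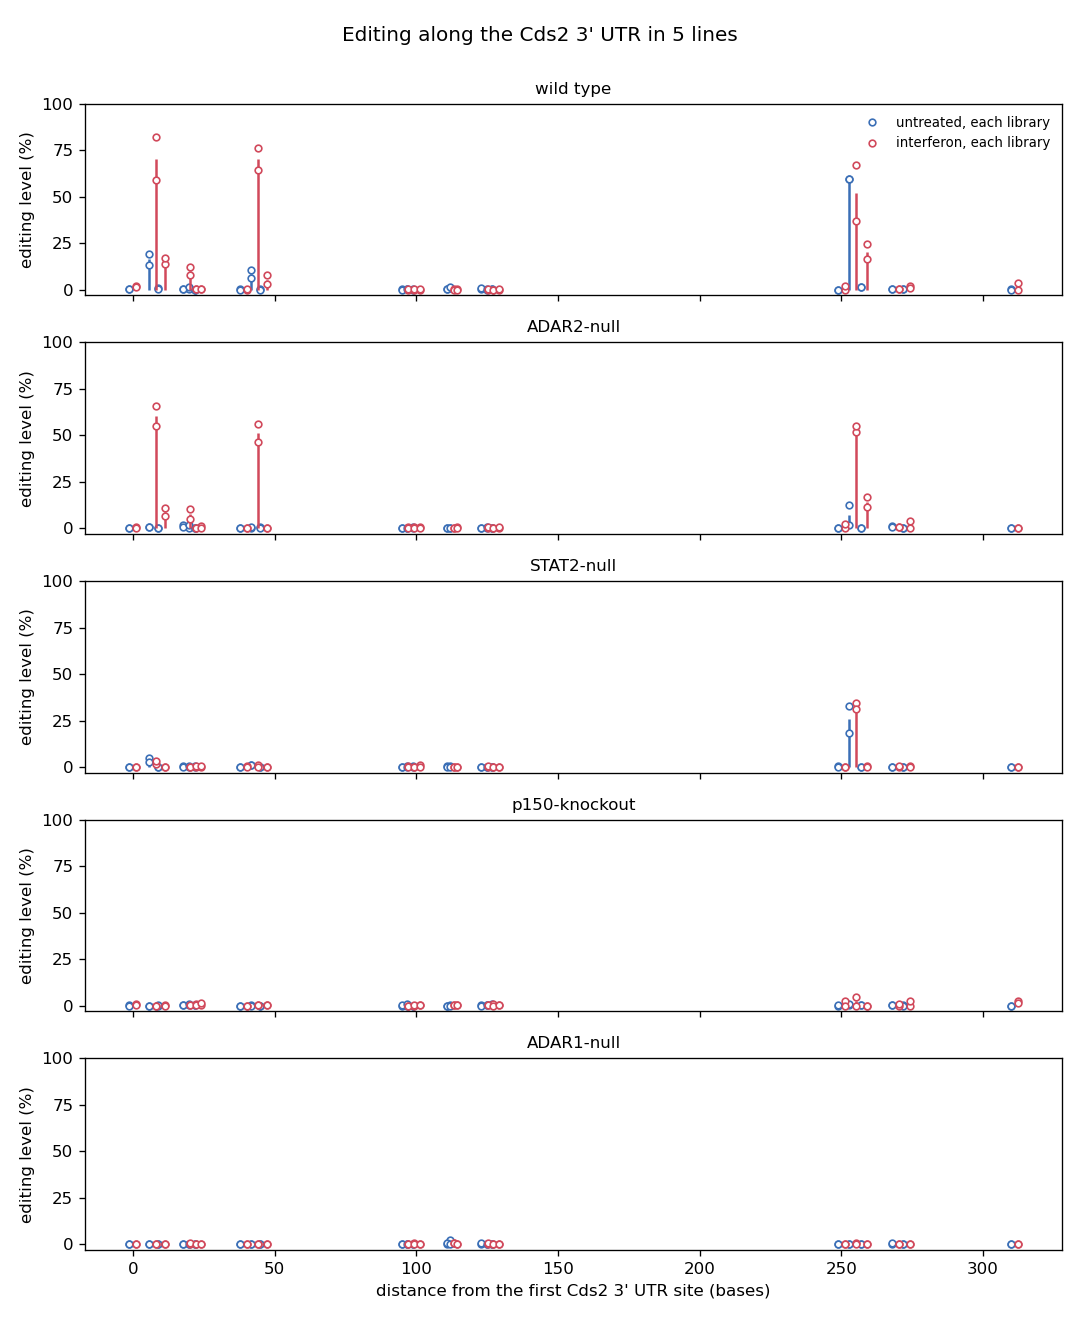
Editing level (percent, vertical axis) at each of the 23 sites against the distance in bases from the first site, in a panel for each line. Lines rise to the group mean and circles are the 2 libraries, untreated in blue and interferon-treated in red, drawn slightly apart. In wild type the untreated peak stands at 254 bases and the treated peaks at 7, 43 and 254 bases, while the p150-knockout and ADAR1-null panels stay below 5%.

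The sites were sorted by their wild-type levels into 4 classes, with cuts at an untreated mean of 5% and at a rise of 10 percentage points with interferon. A site edited before treatment with a smaller rise was called basal (1 site, 132135616). A site edited before treatment that also rose was called basal and raised (2 sites, 132135369 and 132135405). Raised from low were 132135372 and 132135620, and 18 sites were low in both measures. Nearest to the cut on the rise were 132135372 inside, at 14.5 points, and 132135381 outside, at 9.58 points. Nearest to the cut on the untreated level were 132135405 inside, at 8.28%, and 132135620 outside, at 1.24%. Because the classes were made from the wild-type interferon contrast, wild-type changes are described here without a test. The classes are read against the other lines. Comparisons of a line with wild type use the libraries that sorted the sites, so their p-values are no test of the classes.

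In untreated wild-type cells a single adenosine held most of the editing of this UTR. Site 132135616 stood at 59.6% and 59.3% in the 2 libraries (mean 59.4% ± 0.204, SD, n = 2). Site 132135369 stood at 19.3% and 13.4% (16.3% ± 4.15) and site 132135405 at 6.16% and 10.4% (8.28% ± 3.01). In both libraries the order of these 3 sites was the same. Added over the 23 sites, the levels gave 0.913 ± 0.00509 edited adenosines per copy of the RNA (SD, n = 2), and 132135616 made up 65.1% of that sum. Every other site was at or below 1.29% in each untreated wild-type library.

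With interferon, the wild-type sum was 2.52 ± 0.0874 edited adenosines per copy, and the order of the mean levels changed. Site 132135369 stood at 58.7% and 82.1% (70.4% ± 16.5) and site 132135405 at 64.4% and 76.0% (70.2% ± 8.19). Site 132135616 stood at 67.2% and 36.7% (52.0% ± 21.6). It was still the highest site in the first treated library and lay below both of the others in the second, so the treated libraries disagree on the order. The treated libraries of the first 2 sites lay far above the untreated ones, while those of 132135616 lay on either side of them. The treated minus untreated means were 54.1 points (SE 12) at 132135369, 61.9 points (SE 6.17) at 132135405 and -7.46 points (SE 15.3) at 132135616. At 132135616 the sign rested on 1 library: the difference was -22.7 points without the first treated library and 7.81 points without the second.

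The close neighbours of these sites also differed with treatment in wild type. Site 132135372, which lies 3 bases after 132135369, went from 0.933% and 0.606% to 13.8% and 16.8%. Site 132135620, which lies 4 bases after 132135616 on the same amplified stretch, went from 1.29% and 1.18% to 24.6% and 16.3%. Site 132135408, which lies 3 bases after 132135405, went from 0.234% and 0 to 2.96% and 7.73%. Treated and untreated libraries did not overlap at any of the 3 neighbours. The mean level of 132135620 was thus 2.08% of that of 132135616 before and 39.4% of it after treatment, while 132135616 itself did not differ beyond its spread. Site 132135381 went from 0.466% and 0.406% to 7.89% and 12.1%. In the quasi-likelihood test of edgeR, which compares the odds of an edited read, 8 Cds2 sites could be tested in this contrast and 6 were called higher at an adjusted p under 0.05, where 40.4% of all 1223 tested sites were. Since this contrast made the classes, nothing is read from that count.

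ADAR2-null cells offered a set of libraries that the classes did not use, but the gene was chosen with their interferon contrast known. The p-values of that contrast are therefore no independent test of Cds2. Here the basal site and the raised sites were all higher with interferon. Without interferon, 132135616 stood at 12.6% and 1.60% (7.10% ± 7.77, SD, n = 2), 132135369 at 0.557% and 0.889%, and 132135405 at 0.281% and 0.897%. With interferon, 132135616 stood at 51.6% and 55.2% (53.4% ± 2.56), 132135369 at 55.1% and 65.9% (60.5% ± 7.58) and 132135405 at 46.3% and 56.0% (51.2% ± 6.88). Treated libraries lay above untreated ones at all 3 sites with no overlap. The summed level went from 0.150 ± 0.0688 to 2.05 ± 0.304 edited adenosines per copy. Site 132135369 was named from this contrast in earlier results, so its difference of 59.8 points (SE 5.36) is given without a test.

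In the same edgeR test, adjusted by Benjamini-Hochberg over all sites, 4 of the 6 testable Cds2 sites other than 132135369 were higher in treated than in untreated ADAR2-null cells, beside 52.2% of all 1145 sites tested. The minimum mean level of 1% over the libraries compared lets a site that is low in one group enter only where the other is high, here as in the comparisons that follow. Nothing is therefore read from such counts, and p-values without that minimum are given, where available, for sites that entered this way. Site 132135616 rose by 46.3 points (SE 5.78, adjusted p = 0.00582). Without the second untreated ADAR2-null library that difference was 40.8 points and not called (adjusted p = 0.0862). Site 132135405 rose by 50.6 points (SE 4.88, adjusted p = 1.25e-07 with no minimum level). Among the neighbours, 132135372 rose from 0.139% ± 0.197 to 8.71% ± 3.20 (adjusted p = 0.00741 with no minimum level) and 132135620 from 0.225% ± 0.0598 to 13.9% ± 3.80 (adjusted p = 0.000406 with no minimum level). Site 132135381 stood at 1.95% and 0.889% untreated and at 4.99% and 10.2% treated, which edgeR did not call (adjusted p = 0.0739) and limma did (adjusted p = 0.0316). Site 132135408 stayed at or below 0.985% in all 4 ADAR2-null libraries.

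The wild-type and ADAR2-null responses were then compared directly. The test takes the ratio of odds ratios, so it can differ from what the points show where levels start near 0. At 132135616 the ADAR2-null rise exceeded the wild-type difference by 53.8 points (SE 16.3), with an unadjusted p of 0.00986 and an adjusted p of 0.269 in edgeR, so the contrast between the 2 lines was not called. The differences between responses were 5.69 points (SE 13.2) at 132135369 and -11.4 points (SE 7.86) at 132135405, with adjusted p-values of 0.376 and 0.524. In all, 0 of 7 Cds2 sites were called by edgeR (3 with an unadjusted p below 0.05 and 0 with limma), as were 0.175% of all 1146 sites.

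**Figure D3:**
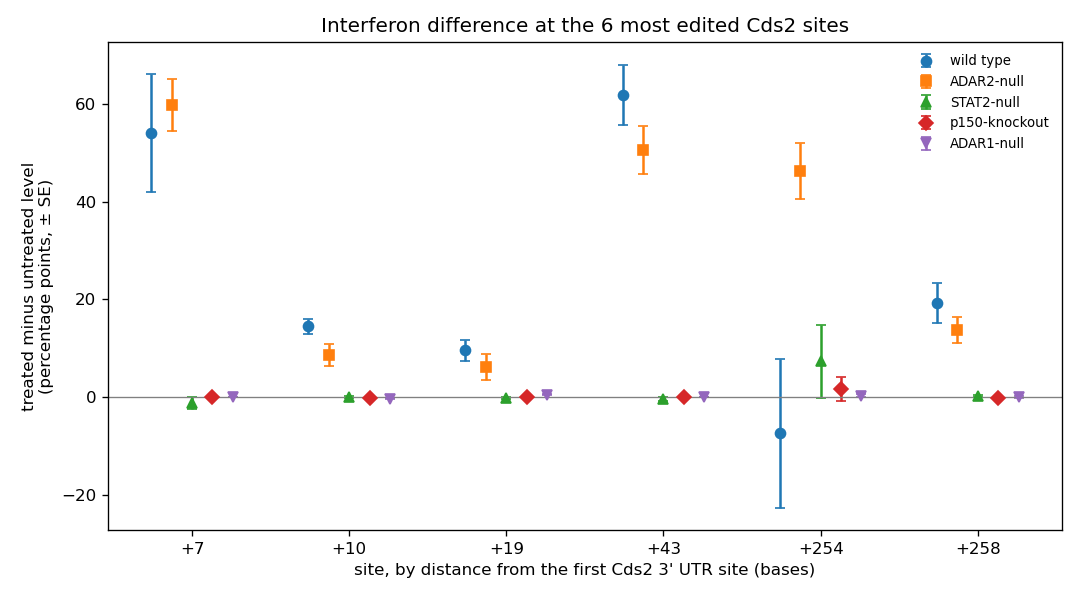
Treated minus untreated editing level (percentage points, vertical axis, bars are ± SE from 2 and 2 libraries) at the 6 sites with a group mean of at least 7%, named by their distance in bases from the first site, for the 5 lines. Wild-type and ADAR2-null points stand apart from 0 at the sites at 7 and 43 bases, and at 254 bases the ADAR2-null point stands at 46.3 and the wild-type point at -7.46 with a wide bar.

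Against untreated wild type, untreated ADAR2-null cells were lower at the basal site and at the raised sites that were edited before treatment. By edgeR 3 of 3 testable Cds2 sites were lower, beside 12.9% of all 588 sites. The same untreated wild-type libraries sorted these sites, so nothing is read from that count and the p-values are given as a description. The differences were -52.3 points (SE 5.50, adjusted p = 0.0181) at 132135616, -15.6 points (SE 2.94, adjusted p = 0.0265 with no minimum level) at 132135369 and -7.69 points (SE 2.15, adjusted p = 0.0198) at 132135405, where the call was lost with no minimum level (adjusted p = 0.0646). ADAR2-null means were 11.9%, 4.43% and 7.11% of the wild-type means at these sites. The libraries did not overlap at any of them, but the calls rest on few libraries: 0 of 3 remained without the second untreated ADAR2-null library, 1 without the first, and 1 without the second untreated wild-type library. None of the 3 was called with only these 4 libraries in the fit (adjusted p = 0.136 to 0.149). With interferon no Cds2 site differed between the lines by edgeR, a count of 0 of 10 (1 with an unadjusted p below 0.05 and 1 with limma), beside 2% of all 1348 sites. The site behind those single calls was 132135408, at 0.296% and 0 in ADAR2-null against 2.96% and 7.73% in wild-type cells (-5.20 points, SE 2.39, adjusted p = 0.118 by edgeR, 0.043 with no minimum level and 0.0304 by limma). At 132135616 the treated lines differed by 1.44 points (SE 15.4, adjusted p = 0.992), an error that leaves room for a large difference either way.

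STAT2-null cells kept editing at the basal site and had little at the raised sites. Site 132135616 stood at 18.4% and 33.1% (25.7% ± 10.3, SD, n = 2) untreated and at 34.7% and 31.5% (33.1% ± 2.26) with interferon. Site 132135369 stood at 4.64% and 2.65% untreated and at 1.67% and 3.02% with interferon, and site 132135405 at 0.872% and 1.31% and then at 1.12% and 0.253%. Treated and untreated libraries overlapped at all 3 sites. The close neighbours 132135372, 132135381 and 132135620 did not exceed 0.580% in any STAT2-null library, and 132135408 had 0 of 1372 edited reads untreated and 0 of 1506 treated, which allow levels of up to 0.219% and 0.199%. The summed level was 0.347 ± 0.0680 edited adenosines per copy untreated and 0.403 ± 0.0345 treated, of which 132135616 made up 74.3% and 82.0%.

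Interferon changed 0 of 2 testable Cds2 sites of STAT2-null cells in edgeR (0 with an unadjusted p below 0.05 and 0 with limma), beside 0% of all 658 sites. The treated minus untreated differences were 7.34 points (SE 7.49) at 132135616 and -1.30 points (SE 1.2) at 132135369. The response was smaller than that of wild type at 2 of 6 sites, beside 13.7% of all 1026. A seventh, 132135408, had no edited read in STAT2-null cells and could not be tested, while the 1026 leave no such site out. The wild-type rise also made the classes, so nothing is read from that count. The 2 sites were 132135405, with a difference of -62.3 points (SE 6.19, adjusted p = 0.0178), and 132135381, with one of -9.88 points (SE 2.13, adjusted p = 0.041). Site 132135381 entered through treated wild type alone, and with no minimum level 132135405 was called (adjusted p = 0.0316) and 132135381 was not (adjusted p = 0.238). The adjusted p ranged from 0.0056 to 0.0821 at the first and from 0.0056 to 0.238 at the other over the alternatives tried. At 132135369 the difference between responses was -55.4 points (SE 12.1, adjusted p = 0.0706 by edgeR and 0.0117 by limma), and at 132135616 it was 14.8 points (SE 17, adjusted p = 0.766). Neither of the 2 calls held in every subset of libraries: none was left without the first untreated wild-type, the second treated STAT2-null or the second untreated STAT2-null library, and 1 without the second wild-type library of either treatment or the first STAT2-null library of either treatment.

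After interferon STAT2-null cells were lower than wild type at the raised sites. By edgeR 6 of 7 testable sites were lower, beside 39.8% of all 1217, but 5 of the 7 passed the minimum level through wild type alone and the treated wild-type libraries also made the classes, so nothing is read from that count. The differences were -68.1 points (SE 11.7, adjusted p = 0.00046) at 132135369, -69.5 points (SE 5.81, adjusted p = 7.24e-10 with no minimum level) at 132135405 and -20.1 points (SE 4.13, adjusted p = 5.77e-05 with no minimum level) at 132135620. The site that was not called was 132135616, at -18.9 points (SE 15.3, adjusted p = 0.409), although the libraries of the 2 lines did not overlap, and no test compared the sites with each other. Treated STAT2-null means were 63.7% of the wild-type mean at 132135616, 3.33% at 132135369 and 0.977% at 132135405. Untreated STAT2-null means were 43.3%, 22.3% and 13.2% of the untreated wild-type means at the same sites. Among untreated cells 0 of 3 sites were called by edgeR (2 with an unadjusted p below 0.05 and 0 with limma), beside 2.95% of all 643 sites. All 3 were lower in both STAT2-null than in both wild-type libraries there, with differences of -33.7 points (SE 7.32, adjusted p = 0.315 by edgeR) at 132135616, -12.7 points (SE 3.10) at 132135369 and -7.19 points (SE 2.14) at 132135405.

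The p150-knockout cells held little editing at any of these sites. Untreated, 132135616 stood at 0.414% and 1.16% (0.787% ± 0.528, SD, n = 2), 132135405 at 0.278% and 0.116%, and 132135369 at 0 of 798 reads, which allows up to 0.376%. With interferon 132135369 had 0 of 919 edited reads (up to 0.326%) and 132135405 stood at 0.200% and 0.231%. Treatment thus left these 2 sites near 0. At 132135616 the treated libraries gave 0 of 36 and 10 of 205 edited reads (2.44% ± 3.45), so the first of them cannot show a level of a few percent. The last site, 132135673, held 2 of 72 and 6 of 406 edited reads after treatment against 0 of 2475 without, and was not called (2.13 points, SE 0.650, adjusted p = 0.343). Within this line 0 of 1 testable site was called with interferon by edgeR (1 with an unadjusted p below 0.05 and 0 with limma), beside 1.65% of all 243 sites.

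Compared with wild type, untreated p150-knockout cells were lower at 3 of 3 testable sites, beside 32.5% of all 517 sites. The wild-type libraries also sorted these sites, so nothing is read from that count and the p-values are given as a description. The differences were -58.6 points (SE 0.400, adjusted p = 6.93e-07 with no minimum level) at 132135616, -16.3 points (SE 2.93, adjusted p = 9.73e-05) at 132135369 and -8.09 points (SE 2.13, adjusted p = 0.0028) at 132135405, all with no minimum level. All 3 calls were kept whichever library was left out. Among treated cells 5 of 7 testable sites were lower, beside 63.9% of all 1039, with -70.4 points (SE 11.7, adjusted p = 9.26e-13) at 132135369 and -70.0 points (SE 5.79, adjusted p = 2.93e-13) at 132135405, both with no minimum level. The call at 132135408 was lost without the first treated p150-knockout library (adjusted p = 0.0938) or the second treated wild-type library (adjusted p = 0.05). Sites 132135616 and 132135620 fell short of 50 reads in a treated library and could be tested with a minimum of 20 reads. The differences were -49.5 points (SE 15.5, adjusted p = 0.00302 by edgeR) and -20.5 points (SE 4.13, adjusted p = 0.00066). Site 132135620 passed the minimum level through wild type alone, so nothing is read from its call. The difference between the p150-knockout and wild-type responses was called at 0 of 4 sites by edgeR (3 with an unadjusted p below 0.05, and 4 of 5 with limma), beside 17.2% of all 839. It was -61.9 points (SE 6.17, adjusted p = 0.0665) at 132135405. At 132135369 it was -54.1 points (SE 12), but edgeR could not test it, since no p150-knockout library held an edited read there and the odds of a response cannot be formed.

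Untreated STAT2-null cells were compared with untreated p150-knockout cells, where wild-type libraries enter only the estimate of the spread. Site 132135616 was higher in STAT2-null cells by 25.0 points (SE 7.32, adjusted p = 0.00116 with no minimum level). Site 132135369 was higher by 3.64 points (SE 0.995, adjusted p = 0.00984 by edgeR), a call lost with no minimum level (adjusted p = 0.0598). These were 2 of 2 testable Cds2 sites, beside 20.8% of all 519 sites called higher by edgeR. Both passed the minimum level through STAT2-null cells alone, so nothing is read from that count. The libraries did not overlap at either site. Without the first untreated p150-knockout library neither was called (adjusted p = 0.0501 at 132135616), 1 was called without the second, and 132135616 alone could be tested without the first untreated STAT2-null library. The call at 132135369 was also lost with only these 4 libraries in the fit (adjusted p = 0.0507 by edgeR).

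ADAR1-null cells, labelled as lacking ADAR1, held little editing at these sites. Their levels may include editing by ADAR2 as well as assay error, which cannot be told apart here. Sites 132135369 and 132135405 had no edited read in any of the 4 libraries, and the 825 to 918 reads per group at 132135369 allow up to 0.364% and 0.327%. Site 132135616 stood at 0 and 0.144% untreated and at 0.615% and 0.133% treated. The summed level was 0.0502 ± 0.00337 and 0.0537 ± 0.0185 edited adenosines per copy, spread thinly over the sites. The highest single value was 2.51% at 132135475 in the first untreated library, where the second stood at 0.427%. Against wild type, 3 of 4 testable sites were lower untreated, beside 49% of all 386 sites, and 7 of 8 with interferon, beside 69.5% of all 1159. The difference at 132135616 was -59.3 points (SE 0.161, adjusted p = 8.65e-11) untreated and -51.6 points (SE 15.3, adjusted p = 7.66e-09) treated, both with no minimum level. No Cds2 site had a mean level of 1% over the libraries needed to test interferon within this line or to compare untreated p150-knockout with untreated ADAR1-null cells, a count of 0 tested sites in each, where 0% of all 114 and 11.8% of all 152 tested sites were called. Without that minimum, edgeR called 0 Cds2 sites in both. All comparisons with wild type share its libraries, which also made the classes, and are not independent of one another.

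**Figure D4:**
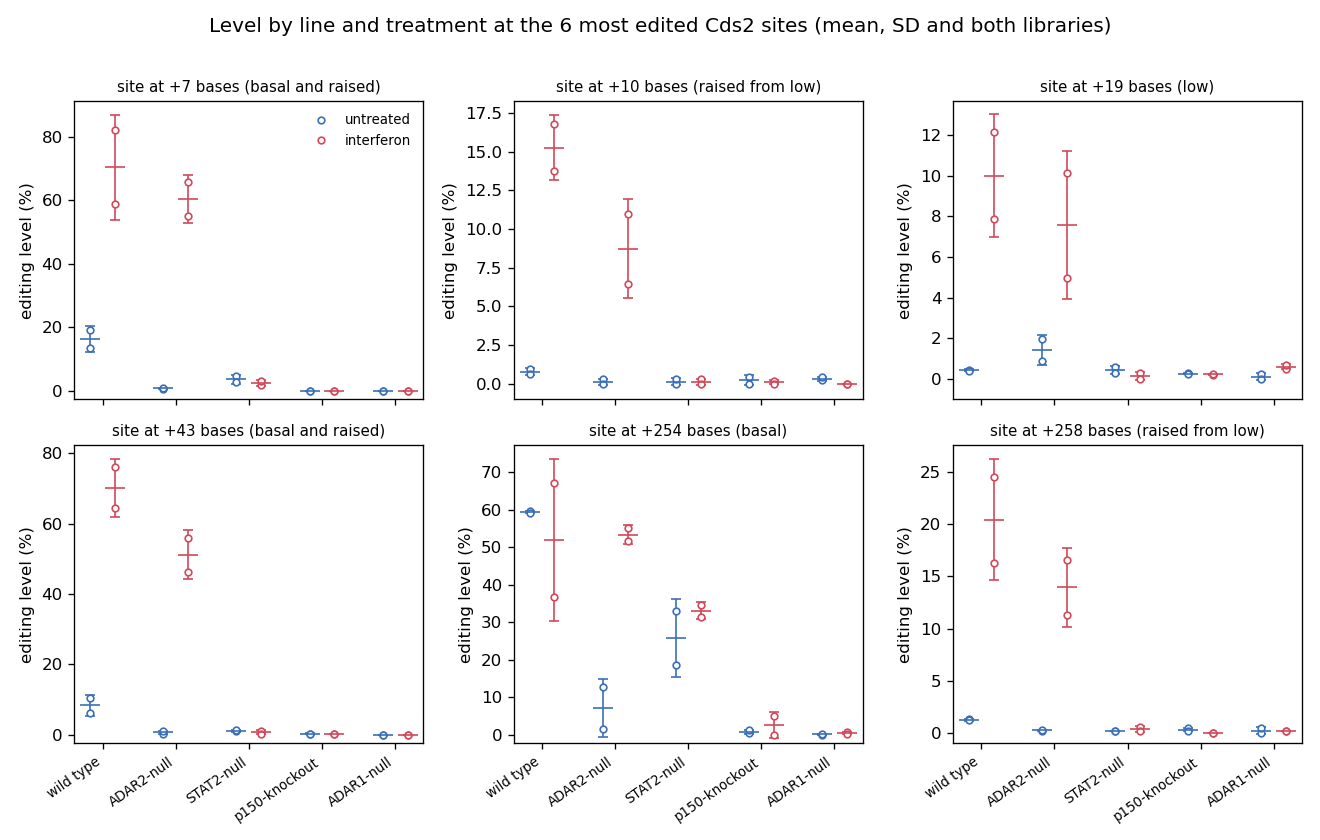
Editing level (percent, vertical axis, scaled separately in each panel) in the 5 lines at the 6 sites with a group mean of at least 7%, named by their distance in bases from the first site and their class. Horizontal marks are means, bars are SD and circles are the 2 libraries, untreated in blue and interferon-treated in red. The basal site at 254 bases is the one panel in which STAT2-null cells stand at 18.4% to 34.7%.

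The order of the 10 group means differed between the basal site and the raised ones. At 132135616 it ran from untreated wild type (59.4%) through treated ADAR2-null (53.4%), treated wild type (52.0%), treated STAT2-null (33.1%) and untreated STAT2-null cells (25.7%) to untreated ADAR2-null (7.10%), then to the p150-knockout and ADAR1-null groups. The treated wild-type libraries (67.2% and 36.7%) lay on either side of the untreated ones (59.6% and 59.3%), so untreated wild type led by its mean only. The libraries of treated ADAR2-null and treated wild-type cells also overlapped, as did those of the 2 STAT2-null groups. From untreated ADAR2-null downward each group overlapped the next. At 132135369 treated wild type (70.4%) and treated ADAR2-null cells (60.5%) overlapped and led, followed without overlap by untreated wild type (16.3%). The STAT2-null groups came next and overlapped each other, then untreated ADAR2-null cells (0.723%), and the p150-knockout and ADAR1-null groups were all at 0. At 132135405 the order was the same down to untreated ADAR2-null cells, with treated wild type (70.2%) above treated ADAR2-null cells (51.2%) without overlap. The untreated ADAR2-null libraries overlapped those of both STAT2-null groups there, which they did not at 132135369. These orders describe the libraries, and no test was made of the difference between the orders.

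Other genes of the same lipid pathway gave almost no testable site. Of 63 genes of phosphatidic acid, CDP-diacylglycerol, phosphatidylinositol and related phospholipid metabolism, 31 had a listed site and 1 met the coverage rule, with 32 sites. That gene was Chka, which encodes a choline kinase of phosphatidylcholine synthesis. Its 3′ UTR site at chromosome 19 position 3866452 stood at 2.09% in treated wild-type and 0.0668% in treated p150-knockout cells, a called difference (-2.02 points, SE 1.56, adjusted p = 0.0306 by edgeR). This Chka site passed the minimum level through wild type alone, so nothing is read from the call. It was 1 of 2 Chka sites tested there, beside the 63.9% of all sites lower in that comparison, and none was called in the other comparisons in which one could be tested, with adjusted p-values of 0.0795 or more.

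The genes whose levels were most like those of Cds2 were found among 59 other genes with at least 3 sites that had 50 reads in all 20 libraries and a mean level of at least 1%. Cds2 enters this with 4 sites of its first stretch, since the second stretch lacked depth in 1 library, so the basal site is not part of it. The Cds2 mean over these sites was 41.5% in treated wild-type, 32.0% in treated ADAR2-null, 6.45% in untreated wild-type and 1.33% in untreated STAT2-null cells. Nup155, a nuclear pore gene, was closest with a root mean square difference of 1.25 points over the 10 groups (Pearson r = 0.997 over 10 groups, 5 sites). Mmgt1, whose product helps insert membrane proteins in the endoplasmic reticulum, followed at 1.61 points (r = 0.994, 5 sites). Exoc8, a subunit of the exocyst, was at 3.66 points, Dcaf10 at 3.68 points and Gnl3l, a nucleolar GTPase gene, at 3.81 points. The median over the 59 genes was 10.8 points with r = 0.947, so a similar shape over the groups was common and closeness in level was less so. The groups share lines, treatments and libraries, and no p is given.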

How the data were processed

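Editing was measured in 20 libraries of 5 fibroblast lines. Per the labels, PCR products were pooled per sample and indexed in 15 cycles; per the submitters' processing notes, BWA and SAMtools were used with mm9, while the sources used here give no versions or filters. The authors deposited, per site and library, coverage and edited reads as counts and the level as a fraction, which equals their ratio to 3 decimals. Positions are as the files give them. Levels were recomputed as percentages. Reads carry no molecular identifiers, so limits (3 edited reads over the group's reads where a level is 0) cover counting error only.

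Edited and unedited counts of all sites were fitted with edgeR 4.0.16 (methylation design, glmQLFit and glmQLFTest, 1 coefficient per group, 20 libraries, R 4.3.3), two-sided. Testing needed 50 or more reads in every library compared and, over those libraries, an average of 1% or more; calls were made at p under 0.05 after Benjamini-Hochberg adjustment over all sites tested. SEs come from the SDs of the 2 libraries. On simulated counts for the wild-type interferon contrast (1222 sites), 43.0% of 100 sites changed 4-fold in odds and 95.0% of 100 changed 16-fold were recovered, with 3.50% false among calls. Alternatives were other coverage minimums (20 and 100 reads), no minimum level, limma 3.58.1 on log2 odds, only the libraries compared, a replicate block, each library left out, and, added after seeing the data, halved counts at the 5 sites with doubled coverage. In each class the 4 sites with the highest level in the defining treatment were named, plus the site named before from ADAR2-null cells. Members and lists were chosen with earlier results of these data known. No sequence is printed, since no mm9 genome was used here. Python 3.11.15, pandas 2.3.3, numpy 2.4.6 and matplotlib 3.10.9 were used.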

Additional observations from a re-analysis of the deposited data

Results flagged for a closer look

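The interferon response differed between STAT2-null and wild-type cells in edgeR's test of the difference itself at 132135405, by -62.3 points (SE 6.19, adjusted p = 0.0178), and at 132135381, by -9.88 points (SE 2.13, adjusted p = 0.041). Site 132135381 was below 1% in all STAT2-null libraries and in untreated wild type, entered the test through treated wild type alone, and was not called with no minimum level (adjusted p = 0.238). Over the alternatives, the adjusted p ranged from 0.0056 to 0.0821 and from 0.0056 to 0.238 at these sites. The wild-type response in these differences also made the classes, so the calls are given as a description. Groups of 2 libraries are too small to test a single library as an outlier. The widest gap between libraries of a group among the named sites was at 132135616 in treated wild-type cells, at 67.2% and 36.7%.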

How the results depend on the processing

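No result of the 9 named Cds2 sites changed direction while called. Of 80 results of these named sites, 42 were called and 28 of these stayed called in every alternative in which they could be tested. Halving the counts at the 5 sites with doubled coverage changed no call. With only the libraries compared in the fit, 1 of 8 sites was called for interferon in wild type (6 before), 0 of 3 for untreated ADAR2-null against wild type (3 before), 1 of 6 for the STAT2-null response against wild type (2 before) and 1 of 2 for untreated STAT2-null against p150-knockout cells (2 before). Fewer libraries then set the spread. With limma the STAT2-null response differed at 5 and the p150-knockout response at 4 sites, treated ADAR2-null cells differed from wild type at 1, and interferon in ADAR2-null cells gave 6 calls in place of 5, with 132135381 added. With no minimum level the counts were 1 for the STAT2-null response, 1 for STAT2-null against p150-knockout cells, 1 for treated ADAR2-null and 2 for untreated ADAR2-null against wild type (132135405 lost), and 7 for treated STAT2-null against wild type. The cause of these changes was not tested. With the replicate block the STAT2-null response was called at 1 site, 132135405, and no other count of calls changed. The libraries share only a number, and the deviations of same-numbered libraries of a line correlated between -0.146 and 0.145. A minimum of 20 reads moved treated p150-knockout against wild type from 5 to 7 calls, and 100 reads changed no count.

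Leaving out 1 library gave 4 to 7 calls for interferon in wild type, 4 to 6 in ADAR2-null cells, 0 to 3 for untreated ADAR2-null and 0 to 2 for treated ADAR2-null against wild type, 0 to 3 for the STAT2-null response, 0 to 2 for STAT2-null against p150-knockout cells, 5 to 7 for treated STAT2-null, 5 to 6 for treated p150-knockout and 6 to 8 for treated ADAR1-null against wild type. A lone library was assumed to vary like the other groups. A rise of 20 points in place of 10 left 3 of 5 sites outside the low class (132135372 and 132135620 became low), and an untreated level of 10% made 132135405 raised from low. Levels from pooled reads lay within 1 SD of the means at all 90 values compared. Among the 38 other genes with at least 5 sites, 4 of the 5 most like Cds2 were the same. The depth of 36 reads in the first treated p150-knockout library limits the second stretch in that group.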
